A study of Mus musculus with 28 samples.

Results

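The cytosolic RNA and DNA sensors described here are 9 genes chosen by name from the 54532 genes of a count table of murine bone marrow-derived macrophages (BMDM): the RNA helicase genes Ddx58 (RIG-I), Ifih1 (MDA5) and Dhx58 (LGP2), the adaptor genes Mavs and Tmem173 (STING), the kinase genes Tbk1 and Ikbke (IKKε), and the genes of 2 double-stranded RNA-binding enzymes, Eif2ak2 (PKR) and Adar (ADAR1). The rule itself uses no measured value, but the genes were chosen with earlier results of these data known. The study asked how macrophages respond to von Willebrand factor (VWF), the plasma protein that tethers platelets to a damaged vessel wall. BMDM grown with M-CSF from the marrow of C57/B6JB mice aged 8 to 12 weeks received fresh medium with calcium chloride, and then PBS (control), 10 µg/ml of plasma-derived human VWF, or 100 ng/ml of bacterial lipopolysaccharide (LPS). RNA was sequenced after 3.5 h and 16 h, with 5 control, 5 VWF and 4 LPS cultures at each time. They are cultured cells grown as macrophages, exposed to 1 dose of a protein from another species.

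RIG-I and MDA5 bind viral RNA in the cytosol, RIG-I mainly short double-stranded ends with a triphosphate and MDA5 long double strands, and both signal through MAVS on the outer mitochondrial membrane. STING answers cyclic dinucleotides that cGAS makes on cytosolic DNA. Both adaptors lead to the kinases TBK1 and IKKε, which phosphorylate IRF3 and thereby switch on the interferon β gene, and secreted interferon raises many of the sensors themselves in macrophages.

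Total counts per culture lay between 41131209 and 77699206, and every sensor gene had at least 533 counts in every culture. Levels are given as CPM, the counts of a gene relative to the total of its library after correction by TMM factors, with mean ± SD. TMM factors were 0.73 to 0.85 in LPS cultures, 0.94 to 1.18 in control cultures and 0.97 to 1.12 in VWF cultures. Control 16 h replicate 5 stood apart, with a factor of 0.94 against 1.17 to 1.18 in the other 4 cultures of its group. Labels number the cultures as biological replicates without saying whether they came from separate mice, so that p values measure only the spread between these cultures, which may be technical. The 8 macrophage marker genes that were checked all reached 10 TPM, a level scaled for gene length, in at least 1 culture. By the same rule 5 of 28 markers of other cell types did, Ngp, Camp, Xcr1, Col1a1 and Col1a2. Camp was at 0 counts in 2 cultures.

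All 9 genes are protein-coding. On GRCm38, Ddx58 (ENSMUSG00000040296) lies on chromosome 4 from 40203773 to 40239828, Ifih1 (ENSMUSG00000026896) on chromosome 2 from 62595798 to 62646255 and Dhx58 (ENSMUSG00000017830) on chromosome 11 from 100694884 to 100704271. Mavs (ENSMUSG00000037523) lies on chromosome 2 from 131234063 to 131248025, Tbk1 (ENSMUSG00000020115) on chromosome 10 from 121546455 to 121586787 and Ikbke (ENSMUSG00000042349) on chromosome 1 from 131254343 to 131279606. Eif2ak2 (ENSMUSG00000024079) lies on chromosome 17 from 78852564 to 78882573 and Adar (ENSMUSG00000027951) on chromosome 3 from 89715022 to 89753446. For Tmem173 (ENSMUSG00000024349) no position is printed.

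RefSeq promoter windows of GRCm38.p6, running from 250 bases before to 50 bases after a transcript start, were at hand for 7 of the 9 genes, with 3 windows for Adar. They were searched on both strands for the core of the interferon-stimulated response element (GAAANNGAAA), the DNA element through which type I interferon acts on many genes. It is held by 3.44% of 32851 windows in the table, and by a window of 3.99% of 27025 genes. The windows of Ifih1, Ddx58 and Eif2ak2 held the response element core, and those of Mavs, Tbk1, Ikbke and Adar did not. Only exact matches were counted, and near matches were not looked for. Ifih1, Ddx58 and Eif2ak2 rose in the comparisons that follow, as did Ikbke and Adar, whose windows held no exact match of the core. The matches are shown with the flanking bases, 5′ to 3′ on the strand of the gene and with the motif in capitals. They lie at chr2:62646206-62646233 (Ifih1, minus strand), chr4:40239804-40239833 (Ddx58, minus strand) and chr17:78882535-78882564 (Eif2ak2, minus strand).
Ifih1, response element core: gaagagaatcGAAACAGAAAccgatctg
Ddx58, response element core on the opposite strand: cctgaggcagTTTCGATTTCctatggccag
Eif2ak2, response element core: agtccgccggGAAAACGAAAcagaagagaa
The core begins 32 bases after the start of the Ifih1 transcript, 2 bases after that of Ddx58 and 18 bases after that of Eif2ak2. The gamma-activated site (TTCNNNGAA) was also searched for, and matched in window 3 of Adar and in the window of Eif2ak2. It is held by a window of 9.55% of 27025 genes. A match of letters is a description and not evidence of binding.

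Ddx58, Ifih1, Dhx58, Eif2ak2, Ikbke and Adar rose with VWF at both times and with LPS at both times, and none of the 9 was called lower with either treatment at either time. A gene was called at an adjusted p under 0.05 and an absolute log2 fold change over 1 (edgeR quasi-likelihood test, Benjamini-Hochberg adjustment over all tested genes), and all 9 genes reached the expression filter of 10 TPM in every comparison. With VWF at 3.5 h, 6 of 9 genes were called higher, where 9.18% of 8200 tested genes were (753 higher and 453 lower, or 612 and 643 with scaling by library size). With VWF at 16 h, 6 of 9 were called higher, beside 4.55% of 7798 tested genes. LPS at 3.5 h raised 7 of 9, beside 12.8% of 8190 genes (1047 higher and 963 lower, or 708 and 2157 with scaling by library size), and LPS at 16 h raised 7 of 9, beside 15.3% of 7994 genes (1221 higher and 989 lower, or 793 and 2253). The seventh gene was Tmem173 at 3.5 h and Tbk1 at 16 h. Because the members were chosen with earlier results of these data known, these counts beside the shares are a description and not a test. Called lower were 5.52% and 4.15% of all tested genes with VWF at 3.5 h and 16 h, and 11.8% and 12.4% with LPS. Every treated culture lay above every control culture for 7 of the 9 genes with VWF at 3.5 h, where this held for 18.0% of tested genes, for 6 with VWF at 16 h (12.7%), for 8 with LPS at 3.5 h (26.1%) and for 7 with LPS at 16 h (23.5%). The 9 genes had a median log2 fold change of 1.66 with VWF at 3.5 h, 1.30 with VWF at 16 h, 2.68 with LPS at 3.5 h and 2.67 with LPS at 16 h, while the median over all tested genes lay between −0.0304 and 0.00153. Scaling by library size alone moved that median to −0.22 for VWF at 3.5 h, −0.54 for LPS at 3.5 h and −0.57 for LPS at 16 h, so that every fold change here is relative to the bulk of the genes. In bulk RNA, fewer cells that express a gene and less of its RNA per cell cannot be told apart.

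**Figure D1:**
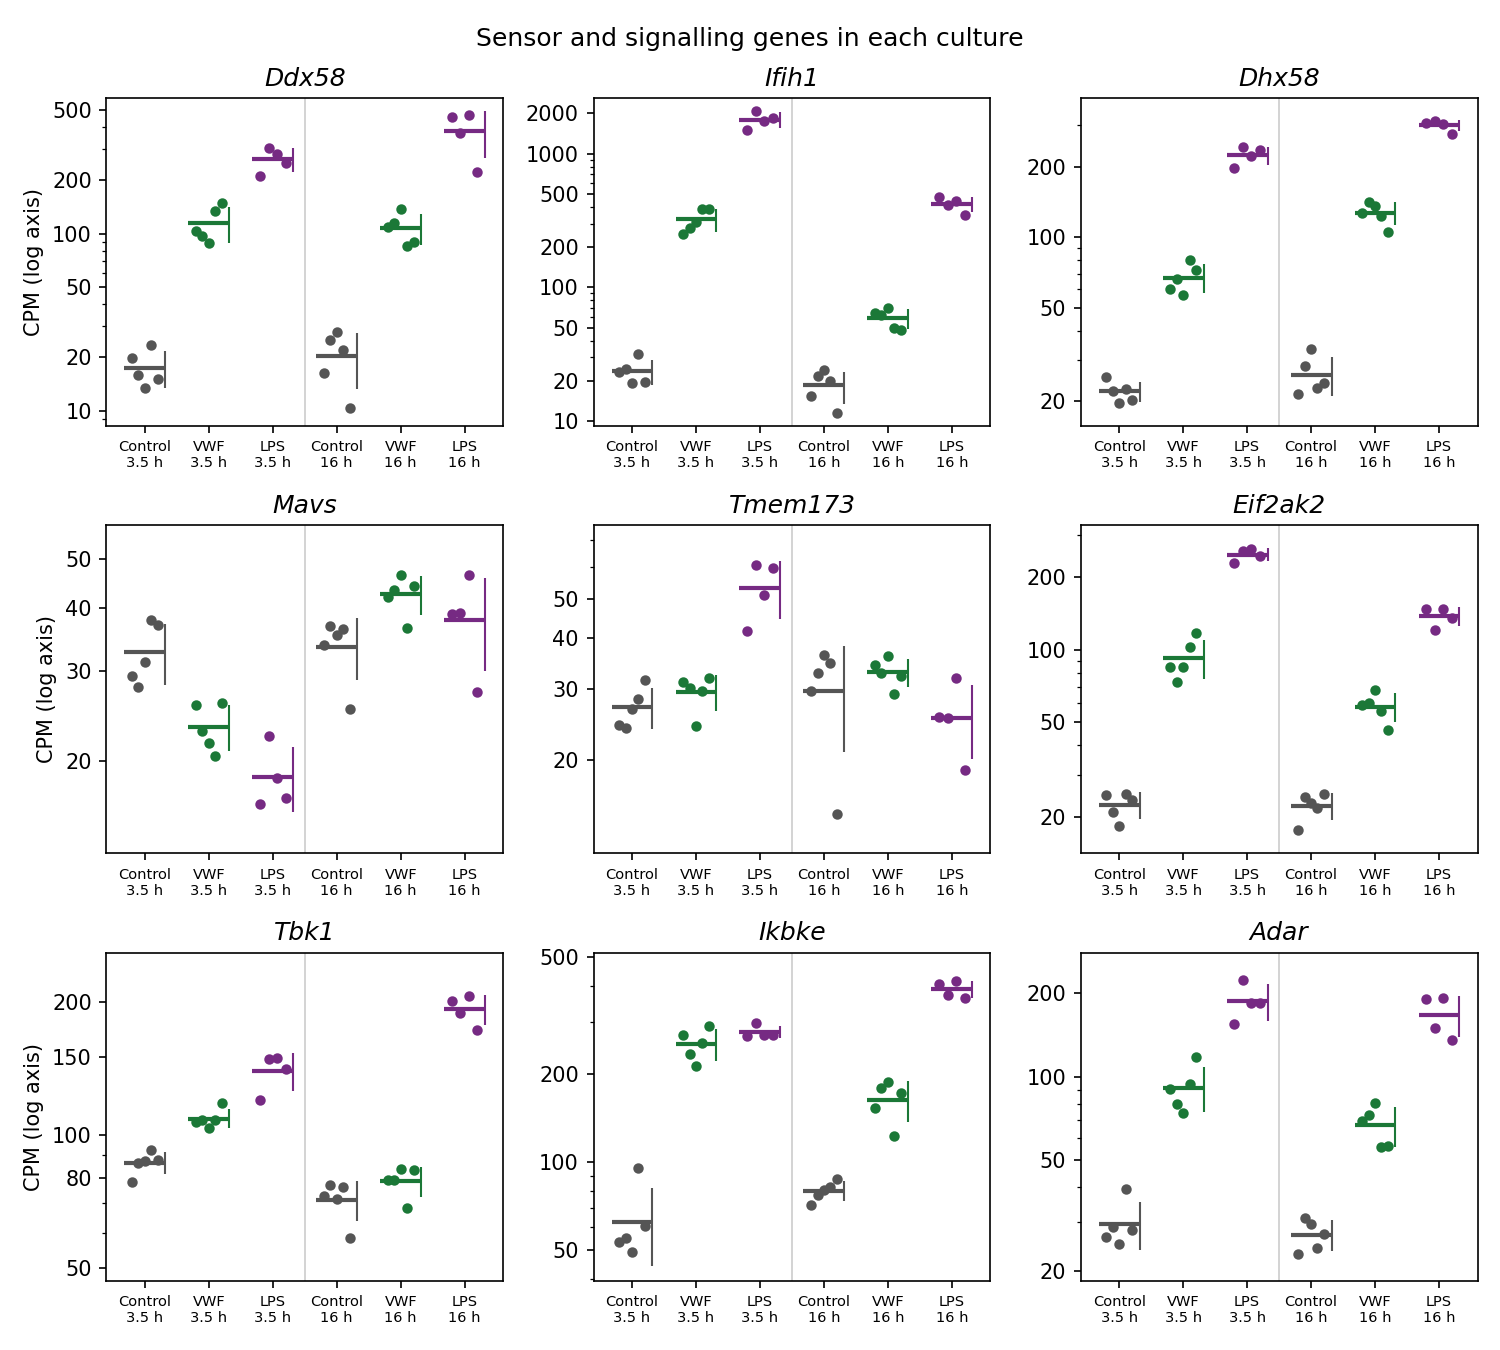
Each panel shows 1 gene, with the CPM of each culture (points, log axis) in the 6 groups, the group mean (horizontal bar) and 1 SD on each side (vertical bar). Ddx58, Ifih1, Dhx58, Eif2ak2, Ikbke and Adar have every VWF and LPS culture above every control culture of the same time, while Mavs and Tmem173 stay between 14.8 and 60.6 CPM throughout.

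Ddx58, the gene of the sensor RIG-I, rose with both treatments and stayed up. At 3.5 h it stood at 19.8, 15.8, 13.4, 23.5 and 15.1 CPM in the 5 control cultures, at 103, 96.7, 88.1, 134 and 149.9 with VWF and at 212, 307, 281 and 251 with LPS. No culture of one group reached into the range of another. At 16 h the control cultures gave 16.4, 25.2, 27.9, 22.0 and 10.3 CPM, the VWF cultures 109, 115, 138, 85.4 and 90.2 and the LPS cultures 457, 368, 467 and 224. The groups were again separate, although LPS replicate 4 lay far under the other 3 LPS cultures and Control 16 h replicate 5 gave the lowest value of all. The log2 fold change against control was 2.74 (SE 0.20) with VWF at 3.5 h (adjusted p = 4.98e-07), 2.39 (SE 0.27) at 16 h (adjusted p = 7.66e-05), 3.93 (SE 0.18) with LPS at 3.5 h (adjusted p = 8.79e-09) and 4.26 (SE 0.34) at 16 h (adjusted p = 4.97e-06; edgeR quasi-likelihood test, Benjamini-Hochberg adjustment). Without Control 16 h replicate 5 the values at 16 h were 2.22 for VWF and 4.08 for LPS. The LPS value was 4.44 without LPS 16 h replicate 4.

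Ifih1, the gene of the sensor MDA5, had the largest early rise of the 9 and was the one whose level fell most between the times. At 3.5 h the control cultures held 23.3, 24.5, 19.1, 31.7 and 19.6 CPM, the VWF cultures 251, 279.9, 309.7, 388 and 388 and the LPS cultures 1509.7, 2087, 1744 and 1842. This is a 13.9-fold rise with VWF and a 77.1-fold rise with LPS, with log2 fold changes of 3.80 (SE 0.18) and 6.27 (SE 0.18) (adjusted p = 2.17e-08 and 4.84e-10, edgeR). By 16 h the VWF cultures were down to 64.4, 62.5, 70.6, 49.7 and 47.6 CPM, still above all controls at 15.3, 21.5, 24.0, 19.8 and 11.6. LPS cultures at 16 h gave 477, 413, 443 and 346 CPM, a range that overlaps that of VWF at 3.5 h. The fold changes against control at 16 h were 1.67 (SE 0.21) with VWF and 4.54 (SE 0.23) with LPS on the log2 scale (adjusted p = 0.000159 and 2.72e-07, edgeR). Leaving out Control 16 h replicate 5 gave 1.54 and 4.41, and leaving out LPS 16 h replicate 4 gave 4.62 with LPS.

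Dhx58 encodes LGP2, a helicase without signalling domains of its own that modulates the other 2 helicases. Its mean level was higher at 16 h than at 3.5 h with both treatments, where that of Ifih1 was lower. Control cultures at 3.5 h gave 25.3, 22.2, 19.7, 22.6 and 20.3 CPM, VWF cultures 60.2, 66.6, 56.8, 80.4 and 72.9 and LPS cultures 198, 242, 221 and 235. At 16 h the corresponding values were 21.5, 28.2, 33.3, 22.9 and 23.8 in controls, 127, 142, 137, 124 and 105 with VWF and 307, 314, 304 and 275 with LPS. The 4 treated groups did not overlap with each other or with the controls, in the order LPS at 16 h, LPS at 3.5 h, VWF at 16 h and VWF at 3.5 h. On the log2 scale the fold changes were 1.64 (SE 0.11) and 2.28 (SE 0.14) with VWF at 3.5 h and 16 h, and 3.37 (SE 0.11) and 3.57 (SE 0.15) with LPS (largest adjusted p = 1.53e-06, edgeR). Of the exon length of Dhx58, 4.309% overlaps the antisense gene Dhx58os, which held at most 76 counts in a culture.

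**Figure D2:**
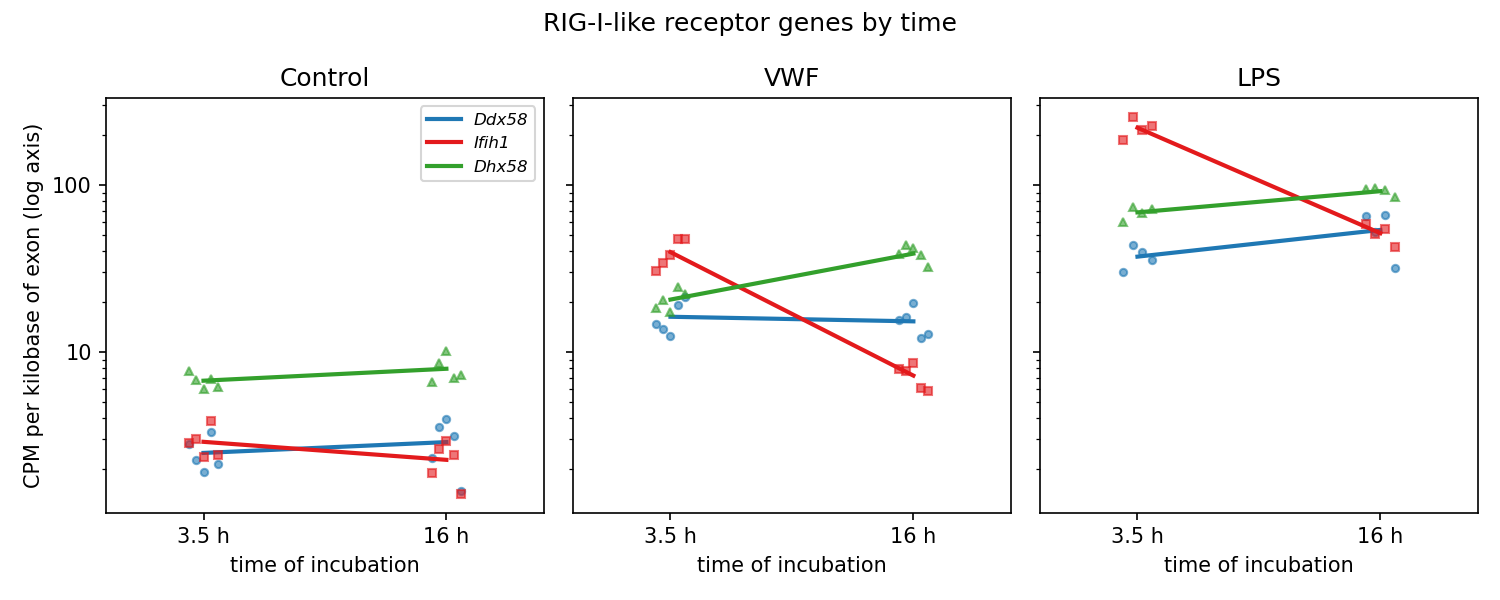
CPM per kilobase of exon (log axis) of the 3 helicase genes at 3.5 h and 16 h in control, VWF and LPS cultures, where points are cultures and lines join the group means. Ifih1 is the highest of the 3 at 3.5 h with VWF and LPS (39.6 and 219.9 on average), whereas Dhx58 is the highest at 16 h with both (38.8 and 91.7). In controls Dhx58 is the highest of the 3 at both times (6.73 and 7.93).

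Per kilobase of exon, the order of the 3 helicases depended on group and time, as the plot of their levels by time shows. In control cultures at 3.5 h the levels were 6.73 ± 0.673 CPM per kilobase for Dhx58, 2.90 ± 0.620 for Ifih1 and 2.49 ± 0.579 for Ddx58, the last being the lowest of the 9 genes. Tbk1 was the highest of the 9 in controls, at 22.1 ± 1.30 per kilobase at 3.5 h and 18.2 ± 1.91 at 16 h. With VWF at 3.5 h Ifih1 led at 39.6 ± 7.67 per kilobase, and with LPS at 3.5 h it reached 219.9 ± 29.3, followed by Dhx58 at 68.5 ± 6.02. With VWF at 16 h Dhx58 was the highest of the 9 at 38.8 ± 4.35 per kilobase and Ifih1 the lowest at 7.22 ± 1.21. In controls at 16 h Dhx58 was likewise the highest of the 3 helicases, at 7.93 ± 1.47. Ifih1 was the lowest of the 9 there too, at 2.26 ± 0.612. The ratio of Dhx58 to Ifih1 per kilobase, taken in each culture, was 0.527 ± 0.0668 with VWF at 3.5 h and 5.43 ± 0.570 at 16 h, against 2.38 ± 0.373 and 3.65 ± 0.870 in controls. With LPS it was 0.313 ± 0.0159 at 3.5 h and 1.80 ± 0.172 at 16 h. These ratios are given as a description, without a test.

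The 2 adaptor genes changed far less than the helicases. Mavs gave 29.3, 27.9, 31.3, 37.9 and 37.1 CPM in control cultures at 3.5 h, 25.8, 22.9, 21.7, 20.5 and 26.0 with VWF and 16.5, 22.4, 18.5 and 16.9 with LPS. Every VWF and LPS culture lay under every control culture at that time, with log2 fold changes of −0.46 (SE 0.11) (adjusted p = 0.00575) and −0.79 (SE 0.13) (adjusted p = 0.000229, edgeR), both short of a change by 1. With scaling by library size the LPS value was −1.32 and would be called. At 16 h the values were 33.8, 36.9, 35.4, 36.3 and 25.3 CPM in controls, 41.9, 43.4, 46.4, 36.5 and 44.2 with VWF and 39.0, 39.1, 46.5 and 27.3 with LPS, and the groups overlapped. The log2 fold changes at 16 h were 0.33 (SE 0.12) with VWF and 0.21 (SE 0.16) with LPS (adjusted p = 0.0643 and 0.303, edgeR), and the LPS value was −0.33 with scaling by library size. Without Control 16 h replicate 5 the VWF and LPS values were 0.24 and 0.13 (adjusted p = 0.028 and 0.472, edgeR).

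Tmem173, the gene of STING, stood at 24.4, 24.1, 26.7, 28.3 and 31.5 CPM in controls at 3.5 h and at 31.1, 30.2, 24.3, 29.7 and 31.8 with VWF. These overlap, and the log2 fold change of 0.15 (SE 0.10) (95% interval −0.072 to 0.38, adjusted p = 0.267, edgeR) turned to −0.063 with scaling by library size. LPS cultures at 3.5 h lay above both, at 41.8, 60.6, 51.2 and 59.5 CPM, with a log2 fold change of 1.00 (SE 0.12) (adjusted p = 3.17e-05, edgeR) that barely passed the fold threshold. It was 0.97 without Control 3.5 h replicate 1 or 2, 1.00 without replicate 3, and 0.93 and 0.95 without LPS 3.5 h replicate 2 or 4, in each case under the threshold, and 0.48 with scaling by library size. At 16 h the cultures gave 29.6, 32.9, 36.3, 34.8 and 14.8 CPM in controls, 34.4, 32.9, 36.2, 29.2 and 32.3 with VWF and 25.5, 25.5, 31.9 and 19.0 with LPS. Control replicate 5 was the lowest of all 28 cultures, and the 3 groups overlapped. Log2 fold changes at 16 h were 0.14 (SE 0.21) for VWF and −0.18 (SE 0.26) for LPS (adjusted p = 0.702 and 0.576, edgeR). Without Control 16 h replicate 5 they were −0.029 and −0.36.

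Tbk1 and Ikbke encode related kinases that act at the same step, and only Ikbke was called higher with VWF. Tbk1, which is made in most cells, gave 78.4, 86.5, 87.4, 92.4 and 87.9 CPM in controls at 3.5 h, 107, 108, 104, 108 and 118 with VWF and 120.04, 149, 149 and 142 with LPS. The groups did not overlap, but the log2 fold changes of 0.36 (SE 0.065) and 0.71 (SE 0.086) (adjusted p = 0.000709 and 2.29e-05, edgeR) were under 1. At 16 h the VWF cultures, at 79.2, 79.0, 83.5, 68.2 and 83.1 CPM, overlapped the controls at 72.5, 77.1, 71.7, 76.0 and 58.5, with a log2 fold change of 0.13 (SE 0.099) (95% interval −0.086 to 0.35, adjusted p = 0.383, edgeR). LPS cultures at 16 h reached 202, 189, 207 and 173 CPM, a log2 fold change of 1.48 (SE 0.10) (adjusted p = 1.94e-06, edgeR), which was 0.93 with scaling by library size.

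Ikbke is the inducible partner of Tbk1. At 3.5 h it stood at 53.4, 55.0, 49.4, 95.2 and 60.8 CPM in controls, where replicate 4 lay far above the rest, at 270.5, 234, 212, 256 and 292 with VWF and at 269, 297, 272 and 272 with LPS. VWF and LPS cultures overlapped each other and lay above all controls, with log2 fold changes of 2.04 (SE 0.18) and 2.17 (SE 0.17) (adjusted p = 2.44e-06 and 6.92e-07, edgeR). At 16 h the control cultures gave 71.2, 77.4, 80.6, 82.4 and 87.9 CPM, the VWF cultures 154, 179, 187, 123 and 173 and the LPS cultures 406, 370.4, 413 and 364, with no overlap. The log2 fold change was 2.32 (SE 0.096) with LPS (adjusted p = 7.68e-08, edgeR) and 1.02 (SE 0.12) with VWF (adjusted p = 9.4e-05, edgeR). The latter was 0.99 without Control 16 h replicate 1, 0.99 without VWF 16 h replicate 2, 0.97 without VWF 16 h replicate 3 and 0.98 with scaling by library size, each under the fold threshold. Per kilobase, the ratio of Ikbke to Tbk1 in each culture was 0.312 ± 0.0782 in controls at 3.5 h, 1.00 ± 0.0899 with VWF and 0.866 ± 0.0767 with LPS. At 16 h it was 0.494 ± 0.0916 in controls, 0.895 ± 0.0864 with VWF and 0.874 ± 0.0264 with LPS, given without a test.

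The 2 enzymes that bind double-stranded RNA were called higher in all 4 comparisons with control. Eif2ak2 encodes PKR, the kinase that halts translation by phosphorylating eIF2α. It gave 24.6, 20.97, 18.3, 25.0 and 23.5 CPM in controls at 3.5 h, 84.5, 73.3, 84.8, 103 and 117 with VWF and 229, 258, 264 and 246 with LPS. By 16 h control cultures held 17.7, 24.1, 22.7, 21.8 and 25.0 CPM, VWF cultures 58.9, 59.96, 67.9, 55.4 and 46.0 and LPS cultures 147, 120.2, 147 and 136. The 4 treated groups were separate from each other and from the controls. Log2 fold changes were 2.07 (SE 0.14) and 1.37 (SE 0.12) with VWF at 3.5 h and 16 h, and 3.49 (SE 0.11) and 2.67 (SE 0.13) with LPS (largest adjusted p = 1.86e-05, edgeR). The small gene Gm26637 on the opposite strand overlaps part of Eif2ak2 and held at most 9.16% of the count of Eif2ak2 in a culture.

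Adar encodes the enzyme that edits adenosine to inosine in double-stranded RNA, by which self RNA escapes MDA5. Its level was 26.4, 28.9, 25.1, 39.5 and 28.04 CPM in controls at 3.5 h, 90.8, 79.9, 73.9, 94.6 and 118 with VWF and 155, 224, 185 and 185 with LPS. The 16 h values were 23.1, 30.996, 29.6, 24.1 and 27.1 CPM in controls, 69.5, 72.7, 80.8, 55.7 and 56.3 with VWF and 191, 150.4, 192 and 136 with LPS. Treated cultures lay above all controls and LPS cultures above all VWF cultures, while the 2 times of 1 treatment overlapped. VWF gave log2 fold changes of 1.66 (SE 0.15) at 3.5 h and 1.30 (SE 0.13) at 16 h, and LPS gave 2.68 (SE 0.15) and 2.67 (SE 0.15) (largest adjusted p = 4.25e-05, edgeR). Of the exon length of Adar, 16.814% overlaps Chrnb2 on the opposite strand, whose count was at most 5.6% of that of Adar. The strand setting of the counting is not given in the sources used here.

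**Figure D3:**
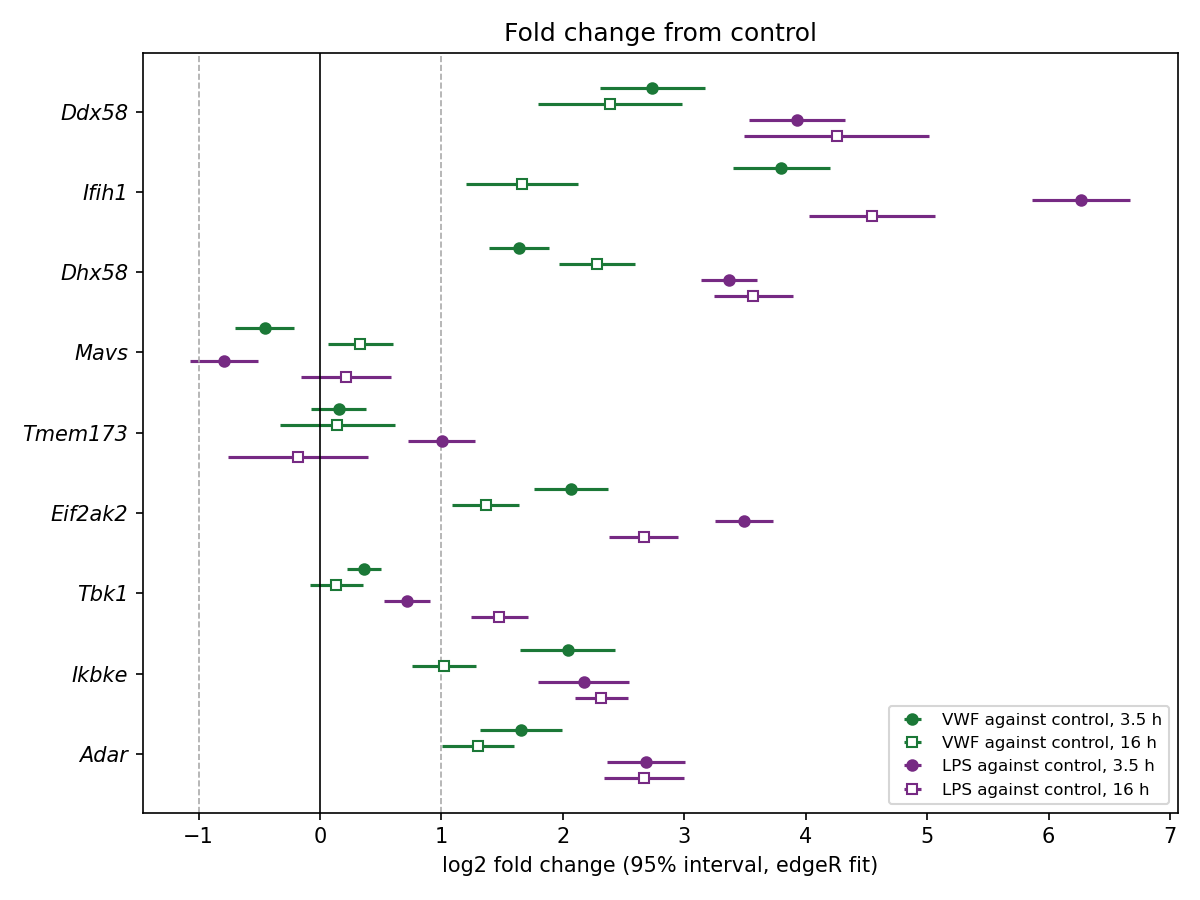
Log2 fold changes against the control cultures of the same time with 95% intervals from the edgeR fit (circles 3.5 h, open squares 16 h), with dashed lines at a log2 fold change of −1 and 1. The 4 values of Ddx58, Ifih1, Dhx58, Eif2ak2, Ikbke and Adar lie above 1, from 1.02 to 6.27, and those of Mavs between −0.79 and 0.33.

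Compared directly, VWF cultures held less of most sensor transcripts than LPS cultures at the doses used. At 3.5 h, 5 of 9 genes were lower with VWF than with LPS, beside 6.71% of 7500 tested genes (353 higher and 503 lower, or 751 and 340 with scaling by library size). The log2 difference was −2.45 (SE 0.15) for Ifih1, −1.71 (SE 0.11) for Dhx58, −1.41 (SE 0.13) for Eif2ak2, −1.17 (SE 0.17) for Ddx58 and −1.01 (SE 0.14) for Adar (largest adjusted p = 0.00023, edgeR). Adar passed the fold threshold narrowly, with −0.91 without LPS 3.5 h replicate 2, −0.97 without VWF 3.5 h replicate 2 and −0.94 without VWF 3.5 h replicate 3. With scaling by library size Ddx58 and Adar stood at −0.88 and −0.72 and were not called. Among the genes called higher with both treatments at 3.5 h, only Ikbke was not called here. Its difference was −0.11 (SE 0.10) (95% interval −0.34 to 0.11, adjusted p = 0.372, edgeR), which turned to 0.18 with scaling by library size. Tmem173, Tbk1 and Mavs were not called either, at −0.83, −0.34 and 0.35 (adjusted p = 0.000354, 0.00692 and 0.0331, edgeR).

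At 16 h, 7 of 9 genes were lower with VWF than with LPS, beside 14.5% of 7574 tested genes (837 higher and 1095 lower, or 1726 and 700 with scaling by library size). Ifih1 differed most, by −2.83 (SE 0.15) on the log2 scale, which is 7.11-fold less, and Ddx58 by −1.82 (SE 0.23). Adar, Tbk1, Eif2ak2, Ikbke and Dhx58 differed by −1.32, −1.29, −1.25, −1.25 and −1.24 (largest adjusted p of the 7 = 7.88e-05, edgeR). With scaling by library size only Ifih1 and Ddx58 were past the fold threshold. Mavs and Tmem173 differed by 0.17 (SE 0.15) and 0.38 (SE 0.14) (adjusted p = 0.354 and 0.0429, edgeR). Leaving out LPS 16 h replicate 4, the culture with the lowest TMM factor (0.73), gave −2.91 for Ifih1 and −2.003 for Ddx58.

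**Figure D4:**
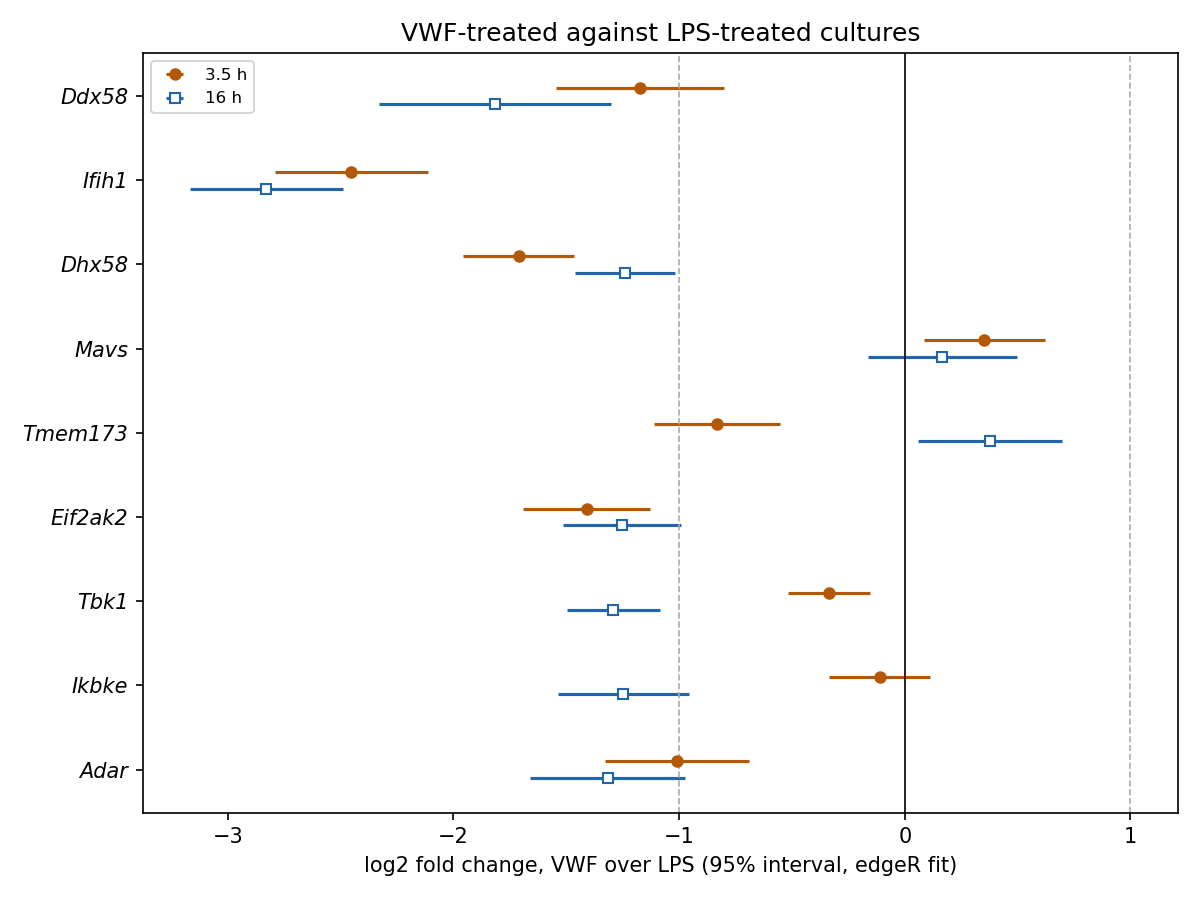
Log2 fold changes of VWF over LPS cultures with 95% intervals from the edgeR fit at 3.5 h (circles) and 16 h (open squares), with dashed lines at −1 and 1. Ikbke lies at −0.11 at 3.5 h and at −1.25 at 16 h, Tbk1 moves from −0.34 to −1.29, and Tmem173 crosses from −0.83 to 0.38.

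Between 3.5 h and 16 h none of the 9 genes was called in control cultures, beside 9.11% of 8333 tested genes (edgeR), 1 had an unadjusted p under 0.05, and DESeq2 called 0. That gene was Tbk1, with a log2 change of −0.27 (SE 0.087) (adjusted p = 0.0285, edgeR). Without Control 16 h replicate 5, Tbk1 was at −0.22 and Tmem173 at 0.31 (adjusted p = 0.0129 and 0.0185, edgeR), both under the fold threshold. In VWF cultures 1 of 9 genes was called, beside 21.4% of 7927 genes. This was Ifih1, lower at 16 h by −2.45 on the log2 scale (SE 0.16, adjusted p = 1.8e-07, edgeR), where 12.2% of the 7927 genes were called lower. Dhx58 went the other way, by 0.92 (SE 0.11) (adjusted p = 2.58e-05, edgeR), and Mavs by 0.87 (SE 0.097) (adjusted p = 1.14e-05, edgeR), both under the fold threshold. Without VWF 3.5 h replicate 4 the value of Dhx58 was 1.00 and was called. Ddx58 differed by −0.082 (SE 0.18) (95% interval −0.47 to 0.30, edgeR), with 0.011 under scaling by library size.

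In LPS cultures 3 of 9 genes were called between the times, beside 28.1% of 6987 genes. Ifih1 was lower at 16 h by −2.07 (SE 0.14, adjusted p = 3.44e-06, edgeR) and Tmem173 by −1.04 (SE 0.18, adjusted p = 0.000866, edgeR), while Mavs was higher by 1.06 (SE 0.17, adjusted p = 0.000731, edgeR). The last 2 passed the fold threshold narrowly. Mavs was at 0.95 without LPS 16 h replicate 3, and Tmem173 at −0.92 without LPS 16 h replicate 4, −0.98 without LPS 3.5 h replicate 2 and −0.99 without LPS 3.5 h replicate 4, all under the fold threshold, while the adjusted p stayed at 0.0037 or less (edgeR).

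The change of the treatment effect with time was tested as an interaction, in which the control cultures of each time are taken off. For VWF 1 of 9 genes was called, beside 13.5% of 8660 genes (474 higher and 697 lower, or 612 and 570 with scaling by library size). This was Ifih1, whose VWF effect was lower at 16 h by −2.11 on the log2 scale (SE 0.27, adjusted p = 3.52e-06, edgeR). Ikbke missed the fold threshold by little, at −0.998 (SE 0.22, adjusted p = 0.00155, edgeR). It was past it in DESeq2 (−1.01) and when any of 7 single cultures was left out, namely Control 3.5 h replicate 4 (−1.20), Control 16 h replicate 1 (−1.03), VWF 3.5 h replicates 2 and 3 (−1.02 and −1.06) and VWF 16 h replicates 2, 3 and 5 (−1.03, −1.04 and −1.02). Mavs, Dhx58 and Eif2ak2 had interactions of 0.81, 0.66 and −0.68 with adjusted p values of 0.000552, 0.00535 and 0.00822 (edgeR).

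For LPS 3 of 9 interactions were called, beside 26.3% of 8748 genes. The LPS effect was lower at 16 h for Ifih1, by −1.70 (SE 0.27, adjusted p = 6.34e-05, edgeR), and for Tmem173, by −1.17 (SE 0.29, adjusted p = 0.0034, edgeR). For Mavs it was higher by 1.03 (SE 0.21, adjusted p = 0.000777, edgeR). The Mavs value fell to between 0.92 and 0.99 and under the fold threshold without Control 3.5 h replicate 4 or 5, Control 16 h replicate 5, LPS 3.5 h replicate 1 or 4, or LPS 16 h replicate 3, the lowest being that without LPS 16 h replicate 3. The VWF and LPS effects share their control cultures.

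Whether the gap between VWF and LPS itself changed with time was tested without the controls. Of the 9 genes 2 were called, beside 25.0% of 8217 genes (879 higher and 1173 lower, or 1172 and 898 with scaling by library size). On the log2 scale the difference of VWF from LPS changed for Ikbke by −1.16 (SE 0.17, adjusted p = 1.78e-05, edgeR), with −0.98 under scaling by library size, and for Tmem173 by 1.19 (SE 0.19, adjusted p = 5.76e-05, edgeR). Tbk1 stood at −0.98 (SE 0.12) (adjusted p = 1.99e-06, edgeR), just short of the fold threshold. It passed at −1.02, −1.01 and −1.01 when LPS 16 h replicate 4, LPS 3.5 h replicate 3 or VWF 16 h replicate 3 was left out. For Ifih1 the gap changed by −0.40 (SE 0.22) (95% interval −0.85 to 0.056, adjusted p = 0.129, edgeR).

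The interferon β gene and the factors that the 2 kinases act on were looked at next, since they stand downstream of the sensors. Ifnb1 held at most 7 counts in a control culture at 3.5 h (0.0417 ± 0.0558 CPM), and LPS cultures reached 170.5 ± 51.4 CPM at that time, VWF cultures 3.94 ± 1.30 CPM. The corresponding levels at 16 h were 2.96 ± 1.24 and 0.0822 ± 0.0549 CPM, under the expression filter in every comparison of that time. Irf3, the factor present before stimulation, did not pass the call in any of the 4 comparisons with control, with log2 fold changes of 0.085 and 0.058 with VWF at 3.5 h and 16 h and −0.23 and −0.085 with LPS. The first 2 of these turned negative with scaling by library size. Irf7, the inducible factor of the same family, rose on the log2 scale by 1.67 (SE 0.33) and 4.57 (SE 0.31) with VWF and by 3.42 (SE 0.37) and 6.80 (SE 0.33) with LPS (largest adjusted p = 0.00158, edgeR).

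The 4 groups of related genes were counted in full beside the 9 sensors. Of all tested genes, 9.18% were called higher and 5.52% lower with VWF at 3.5 h, 4.55% and 4.15% with VWF at 16 h, 12.8% and 11.8% with LPS at 3.5 h and 15.3% and 12.4% with LPS at 16 h. For VWF against LPS the shares were 4.71% higher and 6.71% lower at 3.5 h, and 11.1% and 14.5% at 16 h. The counts in these lists are small and several are near such shares, so that nothing particular to a list is read from them. Of 20 tested partners of the RNA sensor pathway (ubiquitin ligases, TRAF proteins, kinase scaffolds, IRF factors and Ifnb1), 5 were called higher and 0 lower with VWF at 3.5 h, and 2 of 17 higher and 0 lower at 16 h. LPS raised 7 of 20 at 3.5 h and 8 of 18 at 16 h, and called none lower. The median log2 fold change of this group was 0.41, 0.26, 0.65 and 0.83 in these 4 comparisons. Besides Ifnb1 and Irf7, Nlrc5, a regulator of MHC class I genes, rose on the log2 scale at 16 h by 1.23 with VWF and 3.43 with LPS. Between VWF and LPS, 1 of 19 was higher and 4 lower with VWF at 3.5 h, and 0 higher and 9 lower at 16 h. Traf3, the ubiquitin ligase that links MAVS to TBK1, was the gene that was higher, by 1.23 (SE 0.15) (adjusted p = 8.06e-05, edgeR).

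Genes of DNA sensing around STING gave 4 higher and 0 lower of 15 tested with VWF at 3.5 h, and 1 higher and 0 lower of 13 at 16 h. With LPS they gave 5 higher and 1 lower of 15 at 3.5 h, and 4 higher and 4 lower of 13 at 16 h. The medians were 0.040, 0.079, 0.53 and −0.36 on the log2 scale. Against LPS, VWF cultures had 0 higher and 3 lower of 14 at 3.5 h, and 4 higher and 4 lower of 14 at 16 h. Zbp1, a sensor of Z-form nucleic acid, led the group with log2 fold changes of 2.69 (SE 0.19) and 3.59 (SE 0.18) for VWF at the 2 times and 4.71 (SE 0.18) and 5.32 (SE 0.16) for LPS. Trim56, a ubiquitin ligase, rose by 1.48 with VWF at 3.5 h. Samhd1, which degrades deoxynucleotides, rose by 3.24 and 3.22 with LPS and was lower with VWF than with LPS by −2.28 and −2.38. The genes that fell with LPS were Enpp1 at 3.5 h (−1.17), which degrades the messenger of cGAS, and at 16 h among others the nuclease genes Dnase2a (−1.85) and Rnaseh2c (−1.72). Mb21d1, the gene of cGAS, was at 9.76 ± 3.12 CPM in controls at 3.5 h, 23.4 ± 5.13 with VWF and 34.8 ± 6.57 with LPS, and rose by 1.29 and 1.86. It was named after its values were seen.

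Among other RNA-binding helicases and cofactors, 3 of 14 tested were higher with VWF at 3.5 h and 1 of 13 at 16 h, with none lower, and LPS gave 3 higher and 1 lower of 14 and 3 higher and 0 lower of 13. The medians of this group were 0.14, 0.12, 0.071 and −0.25. VWF against LPS gave 0 higher and 1 lower of 13 at 3.5 h, and 2 higher, Ddx21 and Dhx9, and 2 lower, Ddx60 and Zc3hav1, of 13 at 16 h. On the log2 scale Ddx60, a helicase induced by interferon, rose by 2.01 and 2.27 with VWF and 3.99 and 5.29 with LPS. Zc3hav1, the zinc finger antiviral protein gene, rose by 1.51 with VWF at 3.5 h and by 2.37 and 1.81 with LPS. Dhx33 fell by 1.03 with LPS at 3.5 h.

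The relatives of the kinases were counted as a group of 9, made up of the other eIF2α kinases, eIF2α itself, its 2 phosphatase subunits and the IKK subunits. VWF gave 2 higher and 0 lower of 9 at 3.5 h, beside 9.18% and 5.52% of all tested genes, and 0 higher and 1 lower of 8 at 16 h, beside 4.55% and 4.15%. LPS gave 2 higher and 2 lower of 9 at 3.5 h and 2 higher and 1 lower of 8 at 16 h, with medians of 0.27 and −0.039 for VWF and 0.028 and 0.54 for LPS. VWF against LPS gave 0 higher and 1 lower of 7 at 3.5 h, and 1 higher (Eif2ak3) and 2 lower (the 2 phosphatase subunits) of 8 at 16 h. Of the other eIF2α kinase genes, Eif2ak3 (PERK) fell on the log2 scale by 2.54 at 3.5 h and 1.65 at 16 h with LPS, and Eif2ak4 (GCN2) fell by 1.53 with LPS at 3.5 h. Ppp1r15a, the inducible subunit that lets eIF2α be dephosphorylated, rose by 1.02 (SE 0.13) with VWF at 3.5 h and fell by 1.29 at 16 h (adjusted p = 0.000322, edgeR), and rose by 2.67 and 1.77 with LPS. Its relative Ppp1r15b rose by 1.46 with VWF at 3.5 h and by 2.47 and 1.87 with LPS.

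The 9 genes differ in how far their group means range over the 6 groups, from 6.64 on the log2 scale for Ifih1, through 4.40 for Ddx58, 3.77 for Dhx58, 3.49 for Eif2ak2, 2.79 for Adar and 2.67 for Ikbke, to 1.44 for Tbk1, 1.2 for Mavs and 1.07 for Tmem173. Likeness of pattern was taken as the root mean square difference between 2 genes' log2 group means, each centred on its own mean, where smaller is more alike. Within the set the most alike pair was Eif2ak2 and Adar (0.271), followed by Ikbke and Adar (0.323) and Ddx58 and Dhx58 (0.416), and the least alike pair was Ifih1 and Mavs (2.68). Over all 8867 genes that reached 10 TPM in a culture, the nearest to Ddx58 were Pnp (0.155) and Oas1g (0.224), the nearest to Dhx58 were Oas1a (0.145) and Ifi35 (0.216), and the nearest to Eif2ak2 were Nfxl1 (0.172) and Gm38275 (0.190). Adar lay nearest to Nampt (0.0855) and Mitd1 (0.118), and Tbk1 to Lyn (0.0644) and Rnf214 (0.0931). Mavs lay nearest to Fbxw4 (0.0773) and Gipc1 (0.0795), and Tmem173 to Gm3531 (0.0544) and Rpl34 (0.0849). Nearest to Ifih1 were Ifi203 (0.480) and AC133103.6 (0.513). The measure is not scaled to the range of a gene, so that distances of different sensors cannot be set side by side. The median distance to all genes was 2.45 for Ifih1, 0.578 for Mavs and 0.565 for Tmem173. Members of the Oas1 and Ifi200 families share sequence, and how their reads were divided is not given.

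The summed level of the 8 macrophage markers overlapped between control and treated cultures at 3.5 h. At 16 h it was 5860 to 17300 CPM in controls, 18700 to 26100 with VWF and 9940 to 14700 with LPS. The VWF cultures of that time thus lay above all others of that time. Some marker genes of other cell types also differed between the groups. The summed level of Flt3, Zbtb46 and Xcr1 was 1.13 to 1.80 CPM in control cultures at 3.5 h, 13.4 to 19.1 with VWF and 21.6 to 27.0 with LPS, and at 16 h it was 0.599 to 1.70, 0.915 to 2.70 and 12.8 to 29.3. It lay above all controls of its time with VWF at 3.5 h and with LPS at both times, and overlapped the controls with VWF at 16 h. Xcr1 reached 28.7 CPM, whereas Flt3 never exceeded 0.205 CPM and was at 0 in 9 cultures. Of the 3 genes 1 reached 10 TPM in a culture. The endothelial sum of Pecam1 and Cdh5 was 1.71 to 2.70 CPM in control cultures at 3.5 h, 3.80 to 4.62 with VWF and 3.84 to 5.36 with LPS. At 16 h it was 1.02 to 1.55 CPM in controls, 2.34 to 4.51 with VWF and 11.1 to 14.0 with LPS, so that every treated group lay above the controls of its time. The stromal sum of Col1a1, Col1a2 and Col3a1 was larger and overlapped between the groups. At 3.5 h it was 50.7 to 310 CPM in controls, 52.4 to 398 with VWF and 48.9 to 192 with LPS. At 16 h it was 16.2 to 179 CPM in controls, 55.9 to 296 with VWF and 54.8 to 327 with LPS. The neutrophil sum of Ly6g, Elane, Mpo, Ngp and Camp overlapped between control and treated cultures at both times. At 3.5 h it was 0.211 to 4.08 CPM in controls, 1.99 to 8.82 with VWF and 3.35 to 8.32 with LPS. The sum of the plasmacytoid dendritic cell markers Siglech, Ccr9 and Klk1 was 0.167 to 0.311 CPM in controls at 3.5 h. With VWF at that time it was 0.592 to 1.07. It overlapped the controls with LPS at 3.5 h and with both treatments at 16 h. Whether such cells had a part in the sensor values was not tested.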

How the data were processed

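RNA of 28 BMDM cultures was read as pairs of 150 bases. Counts were made by the authors with STAR on GRCm38 and were deposited as whole numbers per gene, unscaled and unfiltered. The sources used here do not give the annotation, the strand setting or the rule for reads with several matches. GENCODE M21, of the same build, supplied names and exon lengths, and groups were taken from the labels.

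CPM was scaled by TMM factors of all cultures, and CPM per kilobase of exon served only to compare genes. A comparison was fitted on the cultures of its groups alone, over genes at 10 TPM or more in at least 1 of them, by the quasi-likelihood test of edgeR 4.0.16 in R 4.3.3 with robust fitting, and Benjamini-Hochberg adjustment ran over all genes tested. Calls needed an adjusted p under 0.05 and an absolute log2 fold change over 1. The study's own test was DESeq2 (version 1.42.0 here), an alternative in this work. The SE is the absolute log2 fold change divided by the square root of F. Likeness took log2 CPM with a prior count of 2. The test was tried on simulated data. Named were the 9 sensors in every comparison, Ifnb1, Irf3 and Irf7, the nearest 2 genes to each sensor by likeness, and at most the 2 called genes of largest change per related list, direction and comparison.

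The members and lists were chosen with earlier results of these data known. Besides DESeq2, its size factors, scaling by library size, the filterByExpr rule, no filter, a joint fit of all groups, a block for the replicate number, calls without a fold threshold, a test against a fold of 2 and the removal of each culture were tried. Same-numbered cultures deviated together in every pair (correlation 0.16 to 0.78 over 4 pairs) only for VWF against LPS at 16 h, a pairing taken from the label numbers. Cultures within a group were compared for duplicates, and none was found (lowest chi-square per degree of freedom 17.1). By this measure 2 cultures stood apart from their groups over all genes. Pairs with Control 16 h replicate 5 gave 569 to 743, and the other pairs of that group 17.1 to 45.3. Pairs with LPS 16 h replicate 4 gave 265 to 469, and the other pairs of that group 46.4 to 94. Intervals come from the spread between cultures. The genes nearest to Ikbke by likeness are not reported here. No promoter row was matched for Dhx58, and no protein sequence was used here.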

Additional observations from a re-analysis of the deposited data

Results flagged for a closer look

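Of 54 sets of values (9 genes in 6 groups), 6 held a culture whose gap to the nearest of the others was large for the range of its group by Dixon's test, where chance flags about 1 in 20 (2.7 sets). Control 16 h replicate 5 was the low culture for Mavs (25.3 CPM, with the others from 33.8 to 36.9) and for Tbk1 (58.5 CPM, with the others from 71.7 to 77.1). Control 3.5 h replicate 4 was the high culture for Ikbke (95.2 CPM, with the next at 60.8) and for Adar (39.5 CPM, with the next at 28.9). VWF 3.5 h replicate 3 was low for Tmem173 (24.3 CPM, with the next at 29.7), and LPS 3.5 h replicate 2 was high for Ikbke (297 CPM, with the next at 272).

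The effect of a treatment against control differed between the 2 times, by the interaction test, for 3 genes. These were 1 of 9 sensors with VWF and 3 of 9 with LPS, beside 13.5% and 26.3% of all tested genes. For Ifih1 the log2 difference of fold changes was −2.11 with VWF (adjusted p = 3.52e-06) and −1.70 with LPS (adjusted p = 6.34e-05, edgeR). The LPS effect also differed for Mavs, by 1.03 (adjusted p = 0.000777), and for Tmem173, by −1.17 (adjusted p = 0.0034, edgeR). The gap between VWF and LPS, which is not an effect against control, differed between the times for 2 of 9, beside 25.0% of all tested genes. They were Tmem173, by 1.19 (adjusted p = 5.76e-05), and Ikbke, by −1.16 (adjusted p = 1.78e-05, edgeR). Such shares of called sensor genes are near those over all genes.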

How the results depend on the processing

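Of 2231 values of single sensor genes under an alternative, 2107 kept their direction and their side of the thresholds, 48 fell under them, 42 passed them and 34, all of uncalled genes, changed sign. Among counts of called sensor genes, scaling by library size gave 3 in place of 5 for VWF against LPS at 3.5 h, 2 in place of 7 at 16 h, 5 in place of 6 for VWF at 16 h, 6 in place of 7 for LPS at 16 h, 6 higher and 1 lower in place of 7 higher for LPS at 3.5 h, 2 in place of 1 for VWF over time, 2 in place of 3 for the LPS interaction and 1 in place of 2 for the gap between VWF and LPS over time. Without the fold threshold the counts were 8 in place of 6 for VWF and 9 in place of 7 for LPS at 3.5 h, 8 in place of 5 and 8 in place of 7 for VWF against LPS at 3.5 h and 16 h, 1 in place of 0 for controls over time, 7 in place of 1 for VWF and 7 in place of 3 for LPS over time, and 5, 5 and 4 in place of 1, 3 and 2 for the 3 interactions. A test against a fold of 2 gave 4 in place of 6 for VWF at 16 h, where Adar and Ikbke were lost, 6 in place of 7 for LPS at 3.5 h, 3 in place of 5 and 5 in place of 7 for VWF against LPS at 3.5 h and 16 h, 1 in place of 3 for LPS over time and for its interaction, and 0 in place of 2 for the gap over time. DESeq2 and median-of-ratios factors each gave 2 in place of 1 for the VWF interaction, through Ikbke, and all groups in one fit gave 6 in place of 7 for LPS at 3.5 h and 2 in place of 3 for the LPS interaction. With each culture left out, the counts were 6 for VWF at 3.5 h, 5 to 6 for VWF at 16 h, 6 to 7 and 7 for LPS at the 2 times, 4 to 5 and 7 for VWF against LPS, 0, 1 to 2 and 2 to 3 for time in control, VWF and LPS cultures, and 1 to 2, 2 to 3 and 2 to 3 for the interactions.

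The replicate number as a block changed none of the 12 counts, for example 6 for VWF at 3.5 h and 7 for VWF against LPS at 16 h. In the latter alone every same-numbered pair deviated together. Elsewhere some pairs did and others did not, with correlations from −0.41 to 0.685 for VWF against control at 3.5 h. Use of the block there rests on a number alone.

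Sign changes among uncalled genes came with scaling by library size for Tmem173 with VWF at 3.5 h (−0.063), Mavs with LPS at 16 h (−0.33), Ikbke for VWF against LPS at 3.5 h (0.18), Ddx58 for VWF over time (0.011), Irf3 with VWF at 3.5 h and 16 h (−0.13 and −0.0075) and Adar for the LPS interaction (−0.019). The interaction of Adar with LPS, 0.0058, was also −0.0023 with DESeq2, −0.0024 with median-of-ratios factors, −0.026 with filterByExpr, −0.025 without a filter, −0.030 with all groups in one fit, and −0.13 to 0.11 with a culture left out. Without a filter, Mavs in controls over time was −0.018 and Irf3 with LPS at 16 h 0.0062. With single cultures left out, values that changed sign ranged from −0.029 (without Control 16 h replicate 5) to 0.23 for Tmem173 and from −0.016 (likewise) to 0.11 for Irf3 with VWF at 16 h, from −0.072 to 0.068 for Eif2ak2 and −0.017 to 0.12 for Mavs in controls over time, from −0.19 to 0.030 for Ddx58 with VWF over time, from −0.15 to 0.12 for Tmem173 in the VWF interaction, and from −0.036 to 0.25 for Ikbke in the LPS interaction. The cause was not tested. Of 18 nearest pairs by likeness 16 stayed with a prior count of 0.5.

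Over all genes, the counts of called genes rose 1.65 to 2.10 times with filterByExpr, 1.57 to 2.34 times without a filter and 1.85 to 4.54 times without the fold threshold in the 12 comparisons, and were lower in all 12 with a test against a fold of 2, from 177 in place of 759 for controls over time to 1429 in place of 2010 for LPS at 3.5 h. Depth limits none of the sensor values, whose counts were at least 533, and the number of cultures sets their precision.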
